A study of Mus musculus with 12 samples.

Results

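The 10 genes described here are Hif1a, Epas1, Egln1, Egln2, Egln3, Vegfa, Adm, Bnip3, Ndrg1 and Ankrd37, taken by gene symbol from RNA-seq of wild-type mouse oligodendrocyte progenitor cells in primary culture. They are 10 of the 18876 genes with a value in at least 1 library, and all 10 passed the filter on low counts that left 13967 genes for testing. Oligodendrocyte progenitors are the brain glia that mature into myelin-forming cells. For 12 h the cells received DMSO as vehicle, 50 µM hemin, 50 µM hemin with 10 ng/mL IL-10, or those 2 agents at the same doses with 2.5 µM stattic. Hemin is oxidised heme, IL-10 an anti-inflammatory cytokine acting through STAT3, and stattic a STAT3 inhibitor. Every group had 3 libraries. There was no group with IL-10 or stattic without hemin. The labels give no age of the animals. They also do not tell if a group's 3 libraries are independent cultures, so the p-values reflect only how much these samples vary, and that variation could be technical.

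Cells sense oxygen largely through a protein, not an RNA, that is made and destroyed continuously. The prolyl hydroxylases encoded by Egln1, Egln2 and Egln3 use oxygen, ferrous iron and 2-oxoglutarate to hydroxylate the HIF alpha subunits encoded by Hif1a and Epas1, and the hydroxylated subunits are bound by the VHL protein and degraded. When hydroxylation slows, HIF alpha accumulates, pairs with ARNT and raises transcription of target genes, among them Vegfa, Adm, Bnip3, Ndrg1 and Ankrd37 and also Egln1 and Egln3 themselves. Heme carries iron, and its breakdown by heme oxygenase releases that iron in ferrous form. RNA-seq measures none of the protein steps.

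After hemin the 10 genes did not move together. Adm and Ndrg1 were higher, Egln1 and Egln2 were lower, Vegfa was higher in every library without passing the test, and Hif1a, Epas1, Egln3, Bnip3 and Ankrd37 did not pass it. Against vehicle, edgeR's quasi-likelihood test called 2 of the 10 genes higher and 2 lower at a Benjamini-Hochberg adjusted p under 0.05. Of all genes tested, 20.9% were called, 11.7% higher and 9.15% lower. The 3 hemin libraries did not overlap the 3 vehicle libraries for 5 of the 10 genes, and the same held for 50.1% of all genes tested. The median log2 change was 0.25 over the 10 genes and 0.03 over all genes tested. Without any 1 of the vehicle replicates or hemin replicate 2, the count of called genes fell from 4 to 2. Over all genes tested, the calls in the same fits fell from 2917 to between 1309 and 1626. With IL-10 added to hemin, and with stattic added to that, none of the 10 genes was called.

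**Figure D1:**
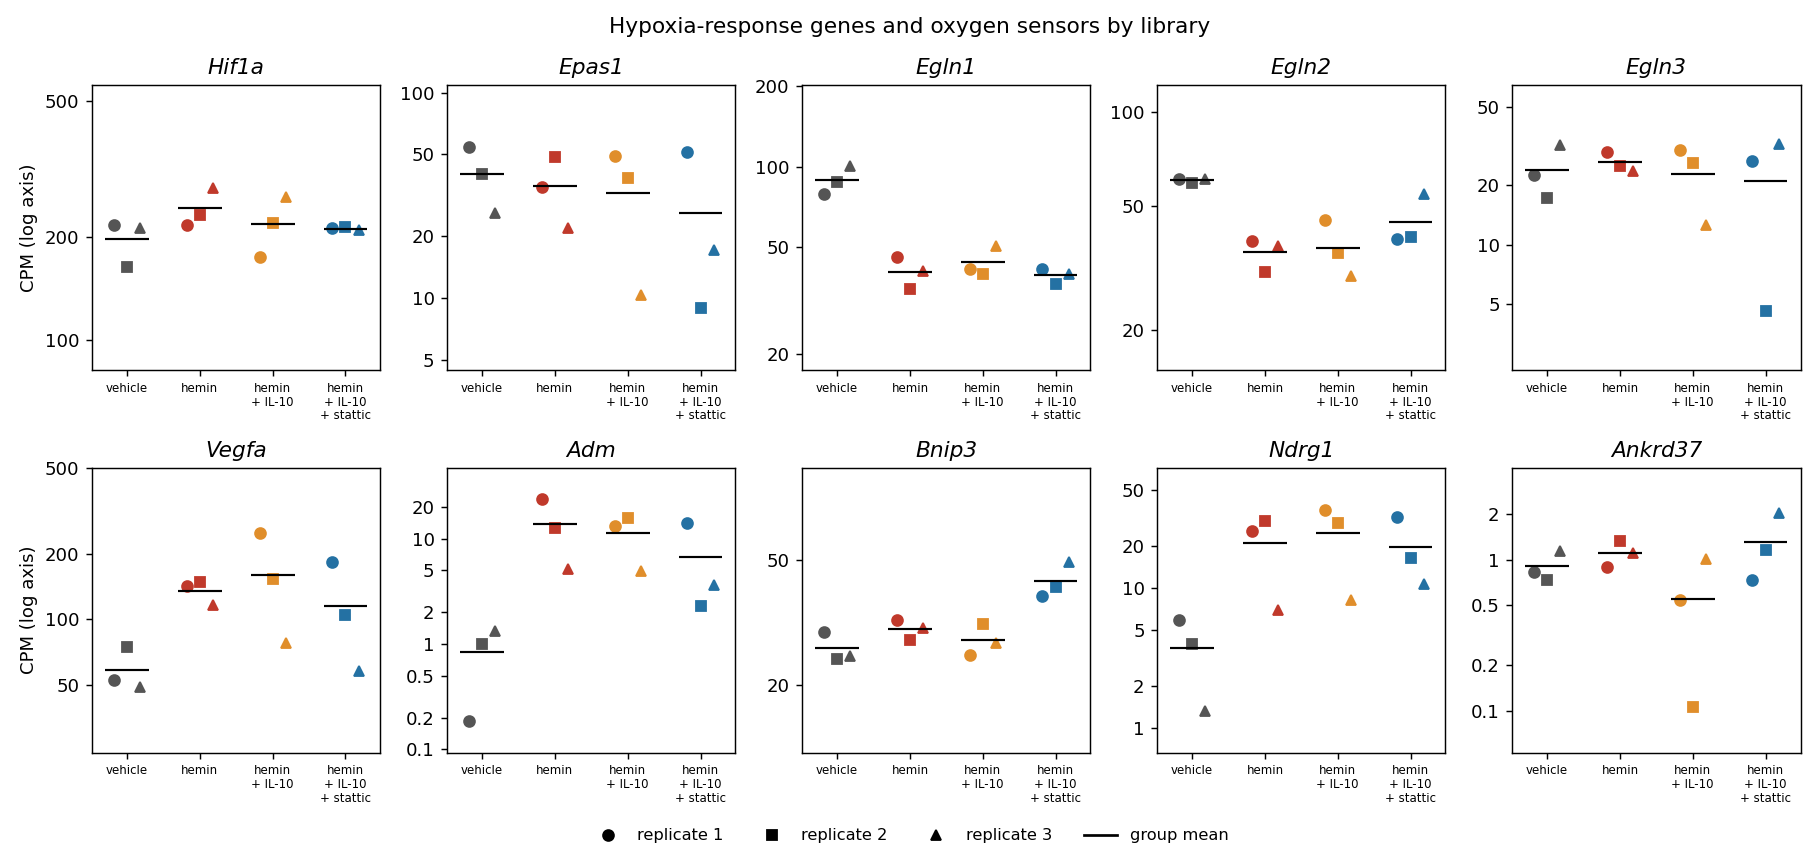
Levels in CPM (log axis) of the 10 genes in each of the 12 libraries, 1 panel a gene and 1 point a library, by treatment. Egln1 and Egln2 sit lower in each hemin library than in each vehicle library, Adm and Ndrg1 sit higher, and the libraries numbered 3 are the lowest of their group for Vegfa and Ndrg1.

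Levels are in CPM, a gene's reads relative to its library's total after scaling by edgeR's TMM factors, in the order replicate 1, 2 and 3, and every change is a log2 ratio from the model with its standard error (SE) over 3 libraries a group. FPKM, which is also scaled for transcript length, is used where genes are set beside each other. Promoter sequence is shown for 3 of the genes, since HIF binds the letters ACGTG or GCGTG: Adm, the gene with the largest rise after hemin, Egln1, the one with the largest fall, and Bnip3, whose window held the most matches of any window of these genes. Each is the 250 bases before the RefSeq start on GRCm38.p6, 5′ to 3′ on the gene's own strand, with the 2 motifs on either strand in capitals, so that CACGT and CACGC mark matches on the opposite strand.
Adm, chr7:110627407-110627656, plus strand: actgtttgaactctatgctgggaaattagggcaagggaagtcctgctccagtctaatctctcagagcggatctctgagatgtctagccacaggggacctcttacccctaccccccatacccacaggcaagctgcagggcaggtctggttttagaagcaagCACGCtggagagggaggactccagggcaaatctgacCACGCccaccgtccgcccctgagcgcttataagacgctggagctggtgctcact
Egln1, chr8:124949255-124949504, minus strand: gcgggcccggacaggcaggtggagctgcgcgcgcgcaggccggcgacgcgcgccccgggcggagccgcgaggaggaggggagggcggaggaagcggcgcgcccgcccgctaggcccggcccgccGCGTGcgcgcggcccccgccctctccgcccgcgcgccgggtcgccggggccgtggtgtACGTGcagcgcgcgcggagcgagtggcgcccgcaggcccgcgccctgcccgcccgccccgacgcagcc
Bnip3, chr7:138909507-138909756, minus strand: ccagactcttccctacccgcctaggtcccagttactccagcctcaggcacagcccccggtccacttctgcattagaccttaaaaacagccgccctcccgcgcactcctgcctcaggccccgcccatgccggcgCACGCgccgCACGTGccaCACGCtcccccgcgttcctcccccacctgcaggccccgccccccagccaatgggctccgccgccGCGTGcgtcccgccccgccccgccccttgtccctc

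The Adm window held 2 matches, at 90 and 54 bases before the start. The Egln1 window held 2, at 126 and 68 bases. The Bnip3 window held 5, between 117 and 35 bases before the start, 2 of which overlap as CACGTG. The GC content of these windows was 56.8% for Adm, 86% for Egln1 and 72.4% for Bnip3, against a median of 52.4% over all windows in the table. The motifs each hold a CG pair, so their number moves with base composition.

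The table had an entry for 8 of the 10 genes, with 10 windows in all, and 9 of these windows held at least 1 match. Epas1 and Ndrg1 had no entry. Of all 32841 windows of the same length in the table, 38.6% held a match and 2.59% held 4 or more. Hif1a had 3 matches, Ankrd37 had 4, Egln3 had 1, the Egln2 starts had 4 and 1, and the Vegfa starts had 0 and 2. Windows with these letters were found for genes that rose, fell and were not called, and a match describes the sequence only. The sources used here do not give the build behind the authors' counts.

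Hif1a encodes the oxygen-regulated subunit of HIF-1. Its level was 217, 163 and 212 CPM with vehicle and 216, 231 and 279 CPM with hemin. The lowest hemin library fell inside the vehicle range and the other 2 lay above it. The log2 change was 0.30 (SE 0.21, 95% interval -0.16 to 0.75, adjusted p = 0.342). Libraries with hemin and IL-10 held 174, 219 and 262 CPM, and those that also had stattic held 212, 213 and 209 CPM, inside the vehicle range. Hif1a had the highest FPKM of the 10 genes in every group by mean, at 49.5 ± 7.57 with vehicle and 57.0 ± 10.1 with hemin (SD, n = 3).

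Epas1 encodes HIF-2 alpha, the other main HIF alpha subunit, best known in endothelial cells. Its level was 54.5, 40.1 and 25.9 CPM with vehicle and 34.8, 48.7 and 21.9 CPM with hemin, ranges that overlap. The log2 change of -0.19 had an SE of 0.63 and an adjusted p of 0.857, so an interval from -1.56 to 1.18 was compatible with the spread. With IL-10 the libraries spread from 10.3 to 49.1 CPM and with stattic from 8.90 to 51.6 CPM. The ratio of Hif1a to Epas1 FPKM lay between 4.86 and 10.1 in the vehicle libraries and between 5.87 and 15.7 in the hemin libraries. It lay between 4.34 and 31.3 with IL-10 and between 5.09 and 29.2 with stattic.

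The 3 hydroxylase genes differed from each other. Egln1, which encodes PHD2, the main hydroxylase of HIF-1 alpha in most cells, stood at 79.1, 88.0 and 101 CPM with vehicle and 46.1, 34.8 and 41.0 CPM with hemin. Each hemin library was below each vehicle library. Egln1 fell by 1.14 on the log2 scale (SE 0.19, 95% interval -1.56 to -0.71, adjusted p = 0.00296). It was called with each replicate left out in turn, at adjusted p from 0.00157 to 0.0202. The libraries with IL-10 held 41.5, 39.7 and 50.8 CPM and those with stattic held 41.7, 36.7 and 40.0 CPM, again all below vehicle. Of the 10 genes, Egln1 had the smallest spread around a called change.

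Egln2 encodes PHD1, a nuclear hydroxylase. It was measured at 60.8, 59.1 and 60.9 CPM with vehicle and at 38.7, 30.6 and 37.2 CPM with hemin. The groups did not overlap. Egln2 fell by 0.76 (SE 0.22, adjusted p = 0.0270). The call was lost without any 1 of the vehicle replicates (adjusted p 0.0688 to 0.0771), without hemin replicate 2 (0.109) and without hemin replicate 3 (0.0542), with the log2 change between -0.84 and -0.67 in all 12 such fits. Egln2 stood at 45.0, 35.3 and 29.8 CPM with IL-10 and at 39.1, 39.8 and 54.4 CPM with stattic, below every vehicle library in both.

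Egln3 encodes PHD3, known in many cells as a strongly HIF-induced gene. With vehicle it stood at 22.6, 17.3 and 32.0 CPM and with hemin at 29.6, 25.0 and 23.7 CPM, all 3 hemin values inside the vehicle range. The log2 change was 0.12 (SE 0.54, 95% interval -1.05 to 1.30, adjusted p = 0.893). Single libraries stood far below the others in the remaining groups, 12.5 CPM in IL-10 replicate 3 and 4.61 CPM in stattic replicate 2.

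On the FPKM scale the 3 hydroxylase transcripts summed to between 67.0 and 78.7 in the vehicle libraries and between 34.3 and 43.4 in the hemin libraries. Egln1 made up 37.2% to 41.6% of that sum with vehicle and 29.2% to 30.4% with hemin, while Egln3 made up 10.8% to 16.9% and 23% to 27.6%. The Egln2 share overlapped, at 42.4% to 48.7% and 43.2% to 46.9%. With IL-10 the Egln1 share was 26.6% to 43.3% and the Egln3 share 14% to 25.5%, both overlapping the vehicle range. With stattic the Egln1 share was 22.8% to 33.3%, below that range, and the Egln3 share 5.45% to 24.4%, overlapping it. With IL-10 the sum was 35.1 to 43.7 and with stattic 32.3 to 41.1, below the vehicle range in all 9 libraries that had hemin. A share says how the sum was divided and not which transcript moved.

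**Figure D2:**
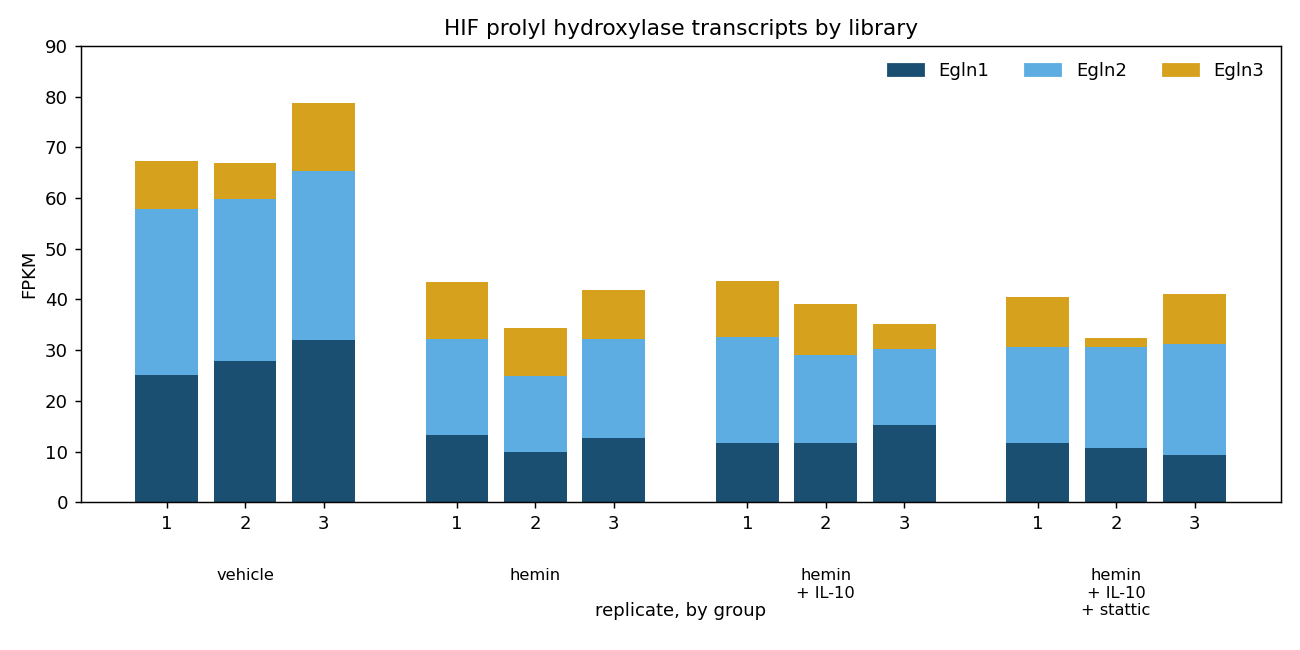
FPKM of Egln1, Egln2 and Egln3 in each of the 12 libraries, stacked to their sum, by treatment. The stacks of the 3 vehicle libraries reach 67.0 to 78.7 and those of the 9 libraries with hemin reach 32.3 to 43.7, and the Egln1 and Egln2 parts are shorter in each of those 9.

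Among the secreted products, Adm encodes adrenomedullin, a vasodilator peptide. It was at 0.19, 1.01 and 1.33 CPM with vehicle, from 2, 11 and 14 expected counts, and at 23.7, 12.5 and 5.21 CPM with hemin. Every hemin library was above every vehicle library, and the hemin libraries themselves spread widely. The log2 change was 4.02 (SE 0.88, 95% interval 2.10 to 5.94, adjusted p = 0.00956). It stayed called with each replicate left out in turn, with log2 changes of 3.37 to 4.5 and adjusted p from 0.0046 to 0.0423. Its SE was the largest among the 4 called changes, and it was 0.74 for IL-10 added to hemin, a comparison without the vehicle group. Adm stood at 13.3, 15.8 and 4.95 CPM with IL-10 and at 14.1, 2.30 and 3.60 CPM with stattic, above every vehicle library in both.

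Vegfa encodes the endothelial growth factor VEGF-A, which brain glia release under low oxygen. It was measured at 52.8, 74.3 and 48.7 CPM with vehicle and at 142, 149 and 116 CPM with hemin. All 3 hemin libraries were above all 3 vehicle libraries. The log2 change of 1.21 (SE 0.44, 95% interval 0.26 to 2.16) had an adjusted p of 0.0674 and was not called. It was called under 5 other settings, among them DESeq2's Wald test (adjusted p = 0.0301) and a fit of the 2 groups alone (0.00549), and without IL-10 replicate 3 (0.0402), stattic replicate 1 (0.0401) or stattic replicate 3 (0.037), libraries that enter this comparison only through the shared estimate of spread. Each of these fits also called more of all genes tested, between 2950 and 4346, where the reported fit called 2917. The spread was widest with IL-10, at 250, 154 and 78.1 CPM, and with stattic, at 184, 105 and 58.0 CPM. By mean FPKM, Vegfa moved from the fourth place among the 10 genes with vehicle, 17.8 ± 4.36, to the second with hemin, 39.7 ± 3.37 (SD, n = 3).

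Of the intracellular targets, Ndrg1 encodes a cytoplasmic protein that peripheral myelin depends on and that low oxygen raises in many cells. Its level was 5.94, 4.02 and 1.33 CPM with vehicle and 25.7, 30.2 and 7.01 CPM with hemin. The groups did not overlap, though the lowest hemin library was close to the highest vehicle library. The log2 change was 2.47 (SE 0.71, 95% interval 0.92 to 4.03, adjusted p = 0.0292). This call was lost without any 1 of the vehicle replicates (adjusted p 0.0526 to 0.102), without hemin replicate 1 (0.0709) or hemin replicate 2 (0.104), with limma on log2(FPKM + 1) (0.0583), and without hemin replicate 1 and stattic replicate 3, the pair of libraries with the steepest length trend (0.0588). Ndrg1 was at 36.5, 29.5 and 8.28 CPM with IL-10 and at 32.1, 16.3 and 10.7 CPM with stattic. Replicate 3 was the lowest of its group for Ndrg1 and for Vegfa in all 4 groups, vehicle included. Without the 4 libraries numbered 3, an alternative chosen after the values had been seen, Ndrg1 kept its call and Vegfa passed the test (adjusted p = 0.0438).

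Bnip3 encodes a mitochondrial outer-membrane protein that directs mitochondria to autophagy. It was at 29.6, 24.2 and 24.8 CPM with vehicle and at 32.1, 27.8 and 30.4 CPM with hemin, with overlap. The log2 change was 0.20 (SE 0.20, 95% interval -0.23 to 0.63, adjusted p = 0.505). Ankrd37, an ankyrin-repeat protein gene that HIF-1 is known to induce, was at 0.73 to 1.14 CPM with vehicle and at 0.89 to 1.33 CPM with hemin, a log2 change of 0.29 (SE 0.62, adjusted p = 0.773). Its deposited values ran from 1 to 17.17 expected counts over the 12 libraries and were fractional in 9 of them, so reads that the estimator divides between genes make its level uncertain. The 95% interval for Ankrd37, -1.06 to 1.65, holds changes of the size seen for Egln2 in either direction.

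The 3 treatments share the vehicle libraries, so their changes against vehicle are not independent and are set side by side only as values. Egln1 had log2 changes of -1.14 with hemin, -1.02 with hemin and IL-10 and -1.18 with all 3 agents. Adm had 4.02, 3.73 and 2.98, and Ndrg1 had 2.47, 2.71 and 2.38. These 3 genes were called in each of the 3 comparisons. Egln2 had -0.76, -0.72 and -0.44 and was not called in the last (adjusted p = 0.152). Vegfa had 1.21, 1.46 and 0.98 and was called in the second of these comparisons (adjusted p = 0.0353), a call lost without any 1 of the vehicle replicates (adjusted p 0.0604 to 0.119), IL-10 replicate 1 (0.15), IL-10 replicate 2 (0.0858) or hemin replicate 2 (0.0535), with library totals (0.0564) and with limma on either FPKM scale (0.0749 and 0.0827). In the third, Vegfa passed the test without stattic replicate 3 (1.29, 0.0408), without both libraries with the steepest length trend, hemin replicate 1 and stattic replicate 3 (0.0491), and without the libraries numbered 3 (0.0444). With IL-10 the other calls lost to single libraries were Egln2 (without any 1 vehicle replicate, IL-10 replicate 2 or IL-10 replicate 3, adjusted p 0.0866 to 0.114), Adm (without vehicle replicate 1, 0.0563) and Ndrg1 (without vehicle replicate 2, vehicle replicate 3, IL-10 replicate 1 or IL-10 replicate 2, 0.0639 to 0.0762). With stattic, Adm and Ndrg1 lost their calls without any 1 vehicle replicate or stattic replicate 1 (0.056 to 0.113 and 0.0528 to 0.102), and the Adm change was 1.79 without the last of these. Both calls were also lost with limma on log2(FPKM + 1) (0.086 and 0.0677), and that of Adm in a fit of the 2 groups alone (0.0592) and with transcript length offsets (0.0518). Egln2 passed the test with transcript length offsets (-0.68, adjusted p = 0.0204) or without stattic replicate 3 (-0.62, 0.0448), and also with library totals (0.0248) and limma on either FPKM scale (0.0224 and 0.0226).

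Against vehicle, the libraries with hemin and IL-10 had 3 of the 10 genes higher and 2 lower, where 21% of all genes tested were called, 12.1% higher and 8.81% lower. The libraries with stattic had 3 higher and 1 lower, where 24.9% were called, 14.7% higher and 10.2% lower. Leaving out 1 replicate at a time gave between 2 and 5 calls in the first of these, with 2 without any 1 vehicle replicate or IL-10 replicate 2 and 3 without IL-10 replicate 1. It gave between 1 and 6 in the second, with 2 without vehicle replicate 1 or stattic replicate 1 and 1 without vehicle replicate 2 or 3. Over the same fits, calls among all genes tested ran from 1202 to 4227 in the first and from 1608 to 3864 in the second. The reported fit had 2927 and 3472. Without stattic replicate 1 the second had 3711. Scaling by library totals in place of TMM moved the median of all genes tested from 0.00 to -0.12 with IL-10 and from 0.10 to -0.14 with stattic. Groups did not overlap for 5 of the 10 genes in each, against 49.2% and 41.1% of all genes tested.

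**Figure D3:**
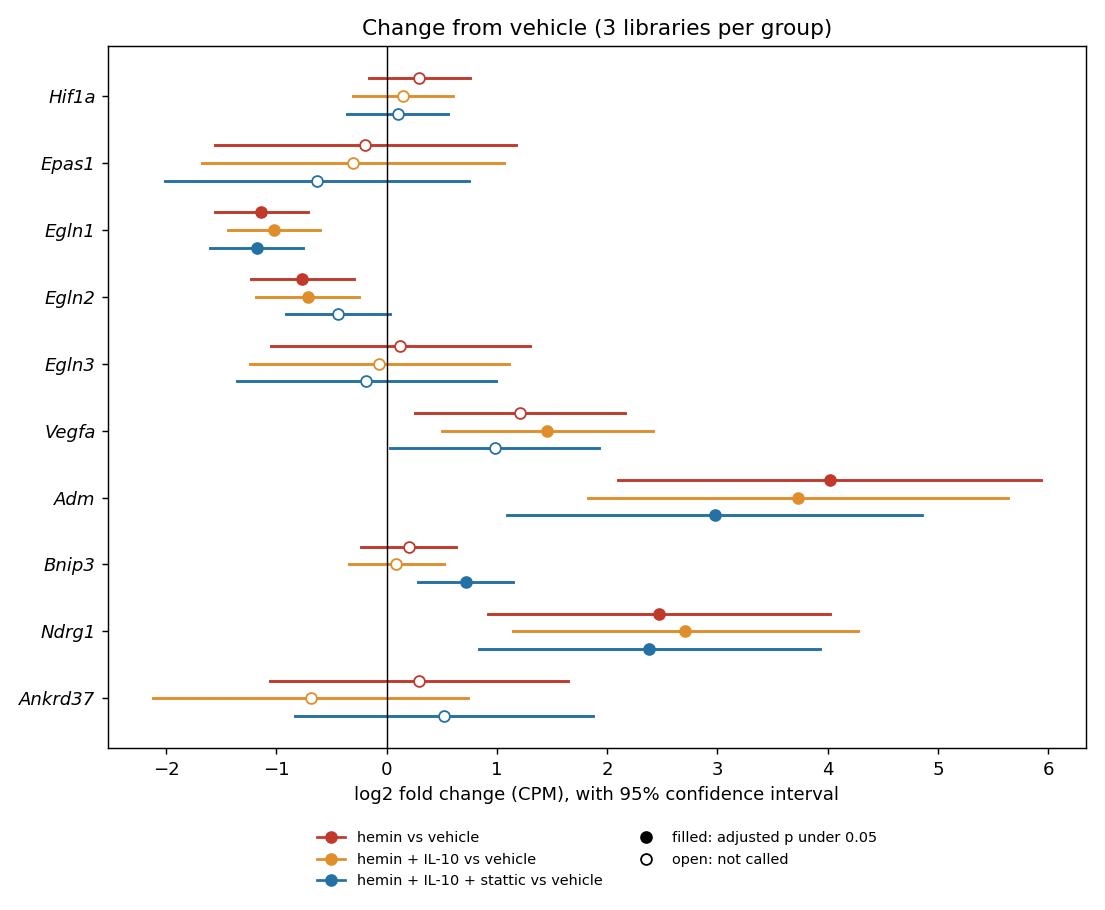
Log2 change from vehicle, with 95% intervals, of the 10 genes in each of the 3 treatments, with filled points for an adjusted p under 0.05. Egln1 lies near -1 in all 3, Adm and Ndrg1 lie between 2.38 and 4.02, and the intervals of Hif1a, Epas1, Egln3 and Ankrd37 cross 0.

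No difference passed the test for any of the 10 genes when IL-10 was added to hemin. edgeR's quasi-likelihood test called 0 of the 10, and 0% of all genes tested, at an adjusted p under 0.05. None of the 10 had an unadjusted p under 0.05, as 337 of the 13967 genes did, DESeq2 called 3 genes in all and none of the 10, and limma on log2 FPKM called 0. The groups overlapped for each of the 10 genes, and did not for 8.68% of all genes tested. The median log2 change was -0.11 over the 10 genes and -0.01 over all genes tested.

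Same-numbered libraries deviated together for numbers 1 and 3 in this comparison, while number 2 was most alike to another number. Within numbers, Hif1a and Ankrd37 were lower with IL-10 in all 3 pairs, and each of the other genes of the 10 had pairs in both directions. How many of all genes tested kept 1 direction in all 3 pairs was not counted. With the replicate number as a block the log2 change was -0.15 for Hif1a (adjusted p = 0.913) and -1.10 for Ankrd37 (0.864), and none of the 10 genes was called.

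The unpaired intervals show what size of IL-10 effect the libraries could still hold. Egln1 had a log2 change of 0.11 with a 95% interval from -0.30 to 0.53, and Egln2 had 0.05 with -0.42 to 0.52. Hif1a had -0.15 with -0.60 to 0.31 and Bnip3 had -0.11 with -0.54 to 0.32. For these 4 genes a change of 1 on the log2 scale lies outside the interval in both directions. The induced genes were far less tightly bounded: Vegfa had 0.24 with -0.69 to 1.18, Adm had -0.28 with -1.90 to 1.33, and Ndrg1 had 0.24 with -1.20 to 1.68. Ankrd37 showed the largest difference, -0.98 with -2.41 to 0.44, from 0.54, 0.11 and 1.01 CPM against 0.89, 1.33 and 1.10 CPM. For Vegfa, Adm and Ndrg1 the sign rested on single libraries. Vegfa had -0.22 and Ndrg1 had -0.15 without IL-10 replicate 1, Ndrg1 had -0.18 without hemin replicate 3, and Adm had 0.08 without IL-10 replicate 3 and 0.37 without hemin replicate 1.

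Adding stattic to hemin and IL-10 also gave 0 calls among the 10 genes and 0% among all genes tested, by edgeR's quasi-likelihood test, DESeq2 and limma. An unadjusted p under 0.05 was found for 523 of the 13967 genes. Bnip3 was the 1 gene of the 10 among them. It was at 24.8, 31.4 and 27.3 CPM with hemin and IL-10 and at 38.5, 41.1 and 49.6 CPM with stattic. The groups did not overlap, which was so for 5.36% of all genes tested. The log2 change was 0.63 (SE 0.20, 95% interval 0.20 to 1.06, adjusted p = 0.921), and it stayed between 0.50 and 0.70 with each replicate left out.

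Against vehicle, all 3 stattic libraries were above all 3 vehicle libraries for Bnip3, with a log2 change of 0.72 (SE 0.20, adjusted p = 0.0221). The call was lost without vehicle replicate 2 (adjusted p = 0.0798) or vehicle replicate 3 (0.0795), with library totals in place of TMM (0.48, adjusted p = 0.0881), and with transcript length offsets (0.39, adjusted p = 0.0996). It was also lost with limma on either FPKM scale (0.0857 and 0.0876), in a fit of the 2 groups alone (0.0764) and without the libraries numbered 3 (0.102). Levels moved with transcript length in all 9 libraries with hemin. There the median log2 difference from the vehicle mean was 0.044 to 1.13 over the shortest of 5 equal groups of genes by length. Over the longest it was -0.862 to -0.0903. In the vehicle libraries, which make up that mean, these medians were -0.0486 to 0.063 and -0.0131 to 0.0148. Stattic replicate 3, where Bnip3 was highest, had 1.13 over the shortest and -0.86 over the longest. Bnip3, with 1756 bases in the deposited files, is among the shorter of the 10 genes. The part of length in the Bnip3 difference was not tested beyond that offset.

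The other 9 genes gave no unadjusted p under 0.05 for stattic. Vegfa had a log2 change of -0.48 (95% interval -1.41 to 0.46), Adm had -0.76 (-2.39 to 0.88) and Ndrg1 had -0.33 (-1.77 to 1.11). Egln1 had -0.16 (-0.58 to 0.26) and Hif1a had -0.05 (-0.51 to 0.41). Ankrd37 had 1.21 (-0.21 to 2.63, adjusted p = 0.921), with 1 count in IL-10 replicate 2.

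**Figure D4:**
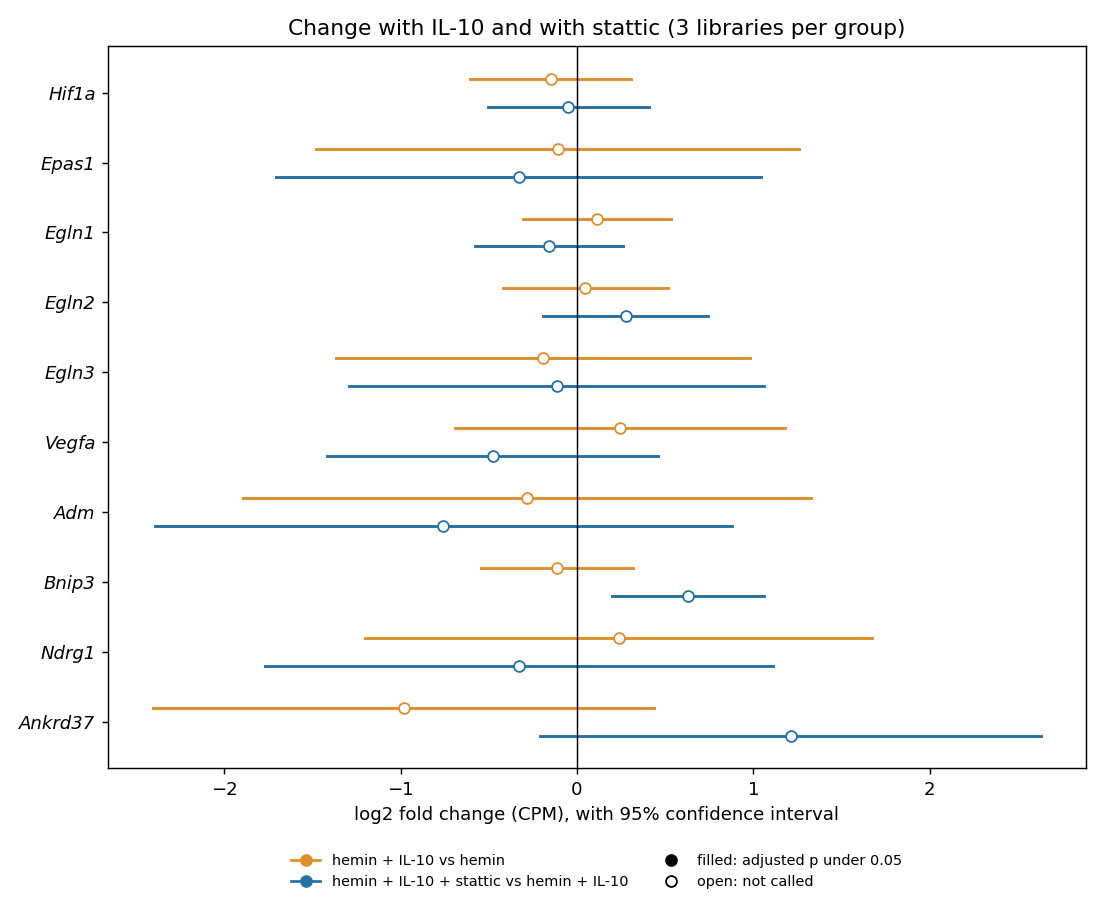
Log2 change with 95% intervals of the 10 genes for IL-10 added to hemin and for stattic added to hemin and IL-10. No gene was called in either, and the Bnip3 interval for stattic, 0.20 to 1.06, is the one that does not cross 0.

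Genes around these 10 in the pathway were taken as a list of 14 HIF partners and regulators and a list of 30 other HIF targets. Of the 13 regulators tested, 2 were higher after hemin and 2 lower, with a median log2 change of 0.27. Of the 29 targets tested, 10 were higher and 1 lower, with a median of 0.74. Of all genes tested, 11.7% were called higher and 9.15% lower, and their median was 0.03. Leaving out 1 replicate at a time gave 1 to 5 regulators and 5 to 14 targets called, with 1 regulator called without any 1 of the vehicle replicates or hemin replicate 2, and with 5 targets called without vehicle replicate 1 or 2, 6 without vehicle replicate 3 and 7 without hemin replicate 2. Over the same fits the calls among all genes tested ran from 1309 to 4256, where the reported fit had 2917. Hif3a was not tested and Epo was not listed in any library.

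Among the regulators, Cited2, a HIF-induced protein that competes with HIF alpha for the coactivators p300 and CBP, was at 12.9, 18.2 and 18.8 CPM with vehicle and 124, 121 and 99.9 CPM with hemin. Its log2 change of 2.79 (SE 0.22, adjusted p = 3.09e-05) held with each replicate left out. Vhl, which encodes the protein that marks hydroxylated HIF alpha for degradation, was at 80.1, 76.1 and 72.6 CPM with vehicle and 51.3, 38.2 and 47.8 CPM with hemin, a change of -0.74 (adjusted p = 0.0225). Arnt2, a neural partner of HIF alpha, was at 252, 279 and 231 CPM with vehicle and 138, 120 and 133 CPM with hemin, a change of -0.96 (adjusted p = 0.0245). None of these groups overlapped, which was so for 8 of the 13 regulators tested and for 50.1% of all genes tested. The Vhl call was lost without any 1 of the vehicle replicates (adjusted p 0.0558 to 0.0763) or hemin replicate 2 (0.099), and the Arnt2 call without any 1 vehicle or hemin replicate (0.0554 to 0.1). The other called regulator, named after its values had been seen, was Siah2, a ubiquitin ligase for the hydroxylases, with 1.29 (adjusted p = 0.0368). Its call was lost without any 1 vehicle replicate, hemin replicate 1, hemin replicate 2 or IL-10 replicate 2 (adjusted p 0.0585 to 0.131), with library totals (0.0519), with limma on either FPKM scale (0.0609 and 0.0709), and without hemin replicate 1 and stattic replicate 3, the pair with the steepest length trend (0.0687).

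Secreted and matrix genes were among the other targets that rose. Edn1, which encodes endothelin-1, had 0 counts in the 3 vehicle libraries and 364 in the 3 hemin libraries, at least 131-fold higher against a floor of 3 counts over the vehicle group (adjusted p = 0.000214). Angptl4, a secreted lipase inhibitor, had 3 vehicle counts and 73 hemin counts, a ratio of 26.3 with a 95% counting interval of 8.65 to 130. That interval is from counts pooled over each group and leaves out variation between libraries. The model gave Angptl4 a log2 change of 4.54 (SE 0.63, 95% interval 3.17 to 5.92, adjusted p = 0.00106). Both genes were near 0 with vehicle and called with each replicate left out. Plod2 and Lox, collagen-modifying enzymes, had 2.03 (adjusted p = 0.00596) and 3.93 (0.0209), and Stc2, a secreted glycoprotein, had 2.61 (0.0146). The Lox call was lost without vehicle replicate 2 (adjusted p = 0.0791), vehicle replicate 3 (0.067) or hemin replicate 1 (0.0887) and with limma on log2(FPKM + 1) (0.0541), and the Lox change was 6.37 without vehicle replicate 1. Without both libraries with the steepest length trend the adjusted p was 0.0719 for Lox and 0.0502 for Slc2a1. The Stc2 call was lost without vehicle replicate 1 (0.0644) or vehicle replicate 3 (0.0636).

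The metabolic targets were divided. Slc2a1, the glucose transporter GLUT1, was at 36.0, 40.2 and 41.1 CPM with vehicle and 274, 223 and 98.9 CPM with hemin (log2 change 2.34, adjusted p = 0.0183). Slc16a3, the lactate exporter MCT4, had 2.49 (adjusted p = 0.0123) from 0.31 to 1.81 CPM by mean. Pdk1, which encodes the kinase that holds pyruvate out of mitochondria, was at 34.6, 27.6 and 23.9 CPM with vehicle and 15.9, 14.2 and 16.1 CPM with hemin, a change of -0.90 (adjusted p = 0.0247). The groups did not overlap for any of these. Ldha, Pgk1 and Pfkfb3, and also Bnip3l, Fam162a and Ddit4, had adjusted p of 0.430 to 0.722 and log2 changes between -0.32 and 0.34. Other metabolic targets without a call also did not overlap vehicle. Such a gap was seen for 15 of the 29 targets tested and for 50.1% of all genes tested. Hk2 was at 20.4 to 26.4 CPM with vehicle and 33.4 to 39.5 CPM with hemin, and Pfkfb4 at 3.38 to 5.14 and 6.35 to 10.1 CPM. Ak4 lay lower with hemin, at 39.9 to 40.6 and 27.6 to 38.9 CPM. Leaving out single libraries ended the Slc2a1 call without any 1 of the vehicle replicates (0.0606 to 0.0699), hemin replicate 1 (0.0545) or hemin replicate 2 (0.0573), the Slc16a3 call without vehicle replicate 1 (0.054) or 2 (0.051), and the Pdk1 call without vehicle replicate 1 (0.11), vehicle replicate 2 (0.0616) or any 1 hemin replicate (0.0522 to 0.0937). The Pdk1 call was also lost with transcript length offsets (0.0633). Car12, with 2.66 (0.0348), and P4ha1, with 0.74 (0.0392), were also higher. Car12 had 1.38 (0.237) without hemin replicate 2, and its call was also lost without any 1 vehicle replicate or IL-10 replicate 2 (0.0515 to 0.118), without the libraries numbered 3 (0.0534) and with limma on either FPKM scale (0.105 and 0.111). The P4ha1 call was lost without any 1 vehicle replicate, hemin replicate 1, hemin replicate 2, IL-10 replicate 1 or IL-10 replicate 2 (0.0513 to 0.152) and under 6 other settings (0.0545 to 0.0774). Car12, P4ha1 and the genes given here without a call were named after their values had been seen.

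**Figure D5:**
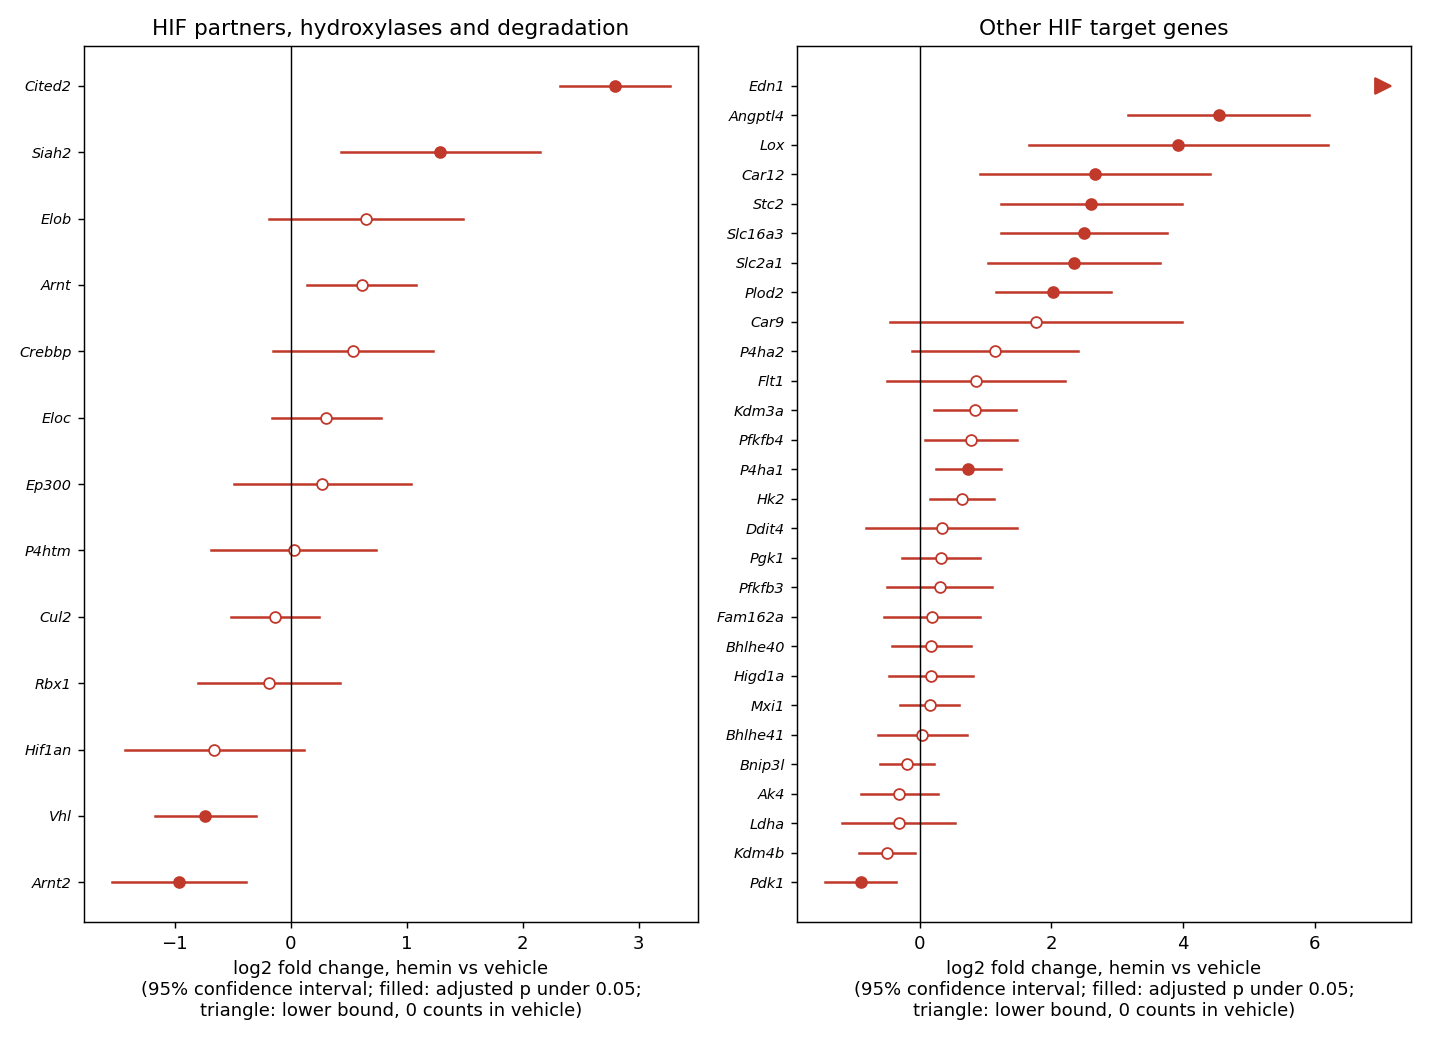
Log2 change after hemin, against vehicle, of tested genes of both wider lists, with filled points for an adjusted p under 0.05 and a triangle for the lower bound of Edn1. Called genes lie on both sides of 0 among the regulators, and among the targets shown Pdk1 is the one called on the lower side.

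For IL-10 and for stattic, 0 of the 13 regulators and 0 of the 29 targets were called. The smallest unadjusted p for IL-10 belonged to Slc16a3 (log2 change -1.59, adjusted p = 0.999), followed by Lox (-1.78) and Car9 (-2.04). Hemin replicate 1 was the highest hemin library for both, and without it Lox had -0.51 and Car9 had -0.17. The smallest for stattic belonged to Bnip3l, the close relative of Bnip3 (0.40, adjusted p = 0.921), followed by P4htm (0.67) and Vhl (0.38).

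The libraries differed in more than these genes. Total expected counts were 9404448 to 10266653. Hmox1, the heme oxygenase gene that heme induces, was at 24.5 to 55.0 CPM with vehicle and 2164 to 10950 CPM in the 9 libraries with hemin. Replicate 3 had the lowest Hmox1 of every group, at 24.5 CPM with vehicle, 2502 with hemin, 2164 with IL-10 and 3030 with stattic. The 6 progenitor markers summed to 1816 to 3071 CPM with vehicle and 504 to 738 CPM with hemin, and 2 of them, Olig2 and Sox10, were called lower, as 9.15% of all genes tested were. Replicate 3 had the highest progenitor sum of every group, at 3071 CPM with vehicle, 738 with hemin, 937 with IL-10 and 1052 with stattic. The part of these replicate differences in the Vegfa and Ndrg1 levels was not tested. In bulk RNA, fewer cells of a type and less RNA per cell cannot be told apart.

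Some markers of other cells were higher with hemin. Of 7 vascular and fibroblast markers tested, 6 were called higher, where 11.7% of all genes tested were, and the summed level of the list went from 4.75 to 6.31 CPM with vehicle to 50.8 to 158 CPM with hemin, 16.3 to 59.2 CPM with IL-10 and 30.9 to 75.6 CPM with stattic. Pecam1 went from 0.37 to 21.9 CPM by mean, while Cldn5, which defines brain endothelium, was at 0 in 6 of the 12 libraries. Of 9 microglial markers tested, 3 were higher, and the list summed to 7.33 to 30.3 CPM with vehicle, 43.4 to 138 CPM with hemin, 23.4 to 50.5 CPM with IL-10 and 62.6 to 134 CPM with stattic. Astrocyte markers summed to 2134 to 5817 CPM with vehicle and 1751 to 2478 CPM with hemin, and neuronal markers to 836 to 1097 and 1071 to 1396 CPM. Of the 7 astrocyte markers 1 was lower, and of the 7 neuronal markers 3 were higher. By mean, Nefm went from 8.6 to 272 CPM, Nefl from 11 to 74.6 CPM and Snap25 from 10.2 to 39.7 CPM. Tubb3, Rbfox3, Syt1 and Map2 were not called, and Map2, at 859 and 808 CPM, made up most of the neuronal sum. The part of vascular, microglial, astrocyte and neuronal cells in the changes of Adm, Vegfa, Ndrg1 and Edn1 was not tested. Nor was that of the fall in progenitor markers in the changes of Egln1 and Egln2.

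Over the 12 libraries, the gene most like each of the 10 among 11055 candidates was named by the highest Pearson r of log2 CPM, as a description, since the 12 libraries share 4 treatments. For Adm it was Ccn2 (r 0.975, and 0.943 after the group means were taken out), for Vegfa Lonrf3 (0.97 and 0.956) and for Ndrg1 Slc22a4 (0.99 and 0.983). For Egln1 it was Inip (0.977 and 0.809), for Egln2 Ap2a1 (0.979 and 0.95) and for Egln3 Gpc4 (0.942 and 0.952). For Hif1a it was Fbxl5 (0.906 and 0.923), for Epas1 Sorl1 (0.974 and 0.97), for Bnip3 Mff (0.911 and 0.816) and for Ankrd37 Ntpcr (0.841 and 0.762). Within the 10 genes the highest r was 0.862, between Vegfa and Ndrg1, and the lowest was -0.835, between Egln1 and Ndrg1.

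By mean FPKM the order with vehicle ran from Hif1a through Egln2, Egln1, Vegfa, Bnip3, Egln3, Epas1, Ndrg1 and Ankrd37 to Adm, which was lowest at 0.72 ± 0.51 (SD, n = 3). Neighbours with overlapping libraries were Egln2 and Egln1, Vegfa and Bnip3, Egln3 and Epas1, and the 3 lowest. With hemin Vegfa and Bnip3 stood above both Egln2 and Egln1 by mean, though the libraries of Bnip3 and Egln2 overlapped, Adm reached the sixth place at 10.8 ± 7.07, and Ankrd37 was lowest at 1.33 ± 0.33. From Egln1 down to Epas1 each gene overlapped the next.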

How the data were processed

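RNA-seq was deposited for 12 libraries, 3 in each of 4 groups, grouped by the titles in the labels. Per the labels' protocols, libraries were made with dUTP in the second strand and read as DNA nanoballs. Tools named in the submitters' processing notes, without version or role, are RSEM, Bowtie, Bowtie2, HISAT, TopHat, Cufflinks, StringTie and CASAVA. The genome build and whether counting used strand are not given in the sources used here. Per the file headers, the deposited files give each gene's expected count (an estimated, unnormalised number of reads), its FPKM (fragments scaled by the authors for transcript length and depth) and its transcript length. Genes that a file does not list were set to 0.

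Expected counts were rounded and tested with edgeR 4.0.16 (quasi-likelihood, robust, filterByExpr, TMM factors, R 4.3.3) in 1 fit of all 12 libraries, with Benjamini-Hochberg adjustment over all 13967 genes tested. SEs are the log2 change divided by the square root of F, with 95% intervals from the fit's degrees of freedom. The procedure was also run on simulated independent counts with 200 genes changed 4-fold. These held no length trend and no link between same-numbered libraries, so that run does not bear on either. Alternatives were DESeq2 1.42.0, limma 3.58.1 on log2(FPKM + 1) and log2(FPKM + 0.1), other scalings and filters, the 2 groups alone, transcript length offsets, a replicate block, and leaving out libraries. The 10 genes, the wider lists and the markers were chosen with earlier results of these data known. Of the wider lists, up to 12 called genes with the smallest adjusted p are named per comparison, or the 3 with the smallest p where none was called, and genes outside that rule are marked as such. Of the targets counted, 1 is not reported here. The candidates for likeness had a mean of at least 5 CPM.

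Same-numbered libraries deviated together in part. For IL-10 added to hemin, r was 0.374, 0.17 and 0.61 for numbers 1 to 3, over genes, after the group means were taken out. It was 0.64, -0.0463 and 0.479 for stattic added to that, and 0.148, 0.0779 and 0.315 for hemin against vehicle. Another number was the better match for number 2 with IL-10 and with stattic, and for number 1 with hemin against vehicle. The replicate block was therefore run as an alternative in every comparison. The labels do not say what a number marks.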

Additional observations from a re-analysis of the deposited data

How the results depend on the processing

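Over up to 24 alternatives a comparison, the 10 genes gave 1081 values with the same direction and call as the reported one, 52 that lost a call, 17 that gained one and 44 that changed sign. Ankrd37 gave no value with a filter at a mean of 1 CPM, and none in 1 comparison fitted on its 2 groups alone. Against vehicle, Egln1 was called for hemin, for hemin with IL-10 and with stattic under every alternative run, and Adm for hemin. The number of the 10 genes called was 2 to 5 for hemin, 2 to 5 with IL-10 and 1 to 6 with stattic when 1 library at a time was left out, and 2 with stattic under limma on log2(FPKM + 1) or with only the 2 groups compared. Regulators called after hemin were 1 to 5 and other targets 5 to 14 with a library left out, and 7 regulators with only the 2 groups compared. Over all genes tested, a left-out library gave 1309 to 4256 calls for hemin, 1202 to 4227 with IL-10 and 1608 to 3864 with stattic. The reported fit gave 2917, 2927 and 3472. With only the 2 groups compared, 4346 were called for hemin and 1650 with stattic. Limma on log2(FPKM + 1) called 3291 with stattic. The cause of these shifts was not tested, and a left-out library also means fewer samples. The replicate block gave 5, 0, 0, 5 and 4 called genes for hemin, IL-10, stattic, and the latter groups against vehicle. It added Vegfa after hemin (adjusted p = 0.016), where r for same-numbered libraries was 0.148, 0.0779 and 0.315. Over all genes tested after hemin, the block called 4000 and the reported fit 2917. The block changed no call among the 10 genes for IL-10 added to hemin.

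Sign changes were all of values without a call, and their cause was not tested. With transcript length offsets the log2 change was 0.0131 for Epas1 after hemin, 0.0594 for Hif1a for stattic, and against vehicle -0.023 for Bnip3 with IL-10 and -0.105 for Ankrd37 with stattic. Without the 4 libraries numbered 3 it was 0.0666 for Epas1 and 0.0377 for Egln3 for IL-10, 0.109 for Hif1a and -0.0256 for Egln2 for stattic, and 0.488 for Egln3 with IL-10 against vehicle, which was 0.00106 with the replicate block. Adm for IL-10 was 0.375 with hemin replicate 1 and stattic replicate 3, the steepest in length trend, left out. With library totals, log2(FPKM + 1) and log2(FPKM + 0.1), Bnip3 with IL-10 against vehicle was -0.0399, -0.0497 and -0.0526, and Hif1a with stattic against vehicle was -0.129, -0.119 and -0.122. With 1 library left out the ranges that crossed 0 were, after hemin, -0.505 to 0.0868 for Epas1 and -0.0631 to 0.385 for Egln3. For IL-10 they were -0.53 to 0.317 for Epas1, -0.124 to 0.179 for Egln2, -0.439 to 0.104 for Egln3, -0.223 to 0.577 for Vegfa, -0.674 to 0.366 for Adm and -0.175 to 0.654 for Ndrg1. For stattic they were -0.189 to 0.101 for Hif1a, -1.32 to 0.0916 for Epas1, -0.568 to 0.362 for Egln3 and -0.873 to 0.0624 for Ndrg1. With IL-10 against vehicle they were -0.00845 to 0.282 for Hif1a, -0.73 to 0.117 for Epas1, -0.321 to 0.222 for Egln3 and -0.00511 to 0.195 for Bnip3. With stattic against vehicle they were -0.0188 to 0.175 for Hif1a and -0.624 to 0.29 for Egln3. Depth limits Adm, Ndrg1 and Ankrd37 most, with as few as 2, 14 and 1 expected counts in a library.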
